A study of Mus musculus with 6 samples.

Results

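Keratin-associated proteins (KAPs) are the matrix of the hair shaft. The genes examined here were grouped, by family number, as those of the cysteine-rich KAPs of high and ultrahigh sulfur families. They were taken as genes on the array whose symbol is Krtap followed by a number. Families 6, 7, 8, 16, 19, 20, 21 and 22 were left out, set apart here as rich in glycine and tyrosine instead. Array rows that also named a gene of another kind were not used. This gave 35 genes of 17 families. Of these, 33 had an array row that named them alone, among 30738 such genes on the array, and 2 (Krtap3-2 and Krtap3-3) shared rows that named both. Sulfur content was not measured here. The sulfur class of a family examined follows what is known of the human families, and families 28, 29 and 31 were given none. The glycine-tyrosine class was set by family number when the genes were chosen. Neither class was given a check against protein sequence.

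The data are Affymetrix array profiles of cells sorted as hair follicle stem cells (HFSCs) by CD34 and α6-integrin from the back skin of female mice aged 35 postnatal days (PD35). All mice were of the strain B6;129S4-Dab2tm1Cpr/J, carried Dab2 fl/fl and received tamoxifen at 75 mg/kg on 5 days. The 3 WT arrays came from K14CreER-/- Dab2 fl/fl mice and the 3 Dab2-cKO arrays from K14CreER+/- Dab2 fl/fl mice, so that the Cre transgene was present only in Dab2-cKO. The keratin 14 promoter drives Cre in basal cells of the whole skin epithelium, not in HFSCs alone. The labels call the 3 arrays of a group biological replicates and do not say whether animals were pooled. The study places WT follicles of this age in early anagen, the growth phase, and Dab2-cKO follicles in telogen, the resting phase, so genotype and hair cycle phase cannot be told apart in these arrays.

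In a growing follicle, matrix cells at the base leave division and form the concentric layers of the hair shaft (medulla, cortex and cuticle) and, around it, the inner root sheath. Shaft cells first make hair keratins, which assemble into filaments, and then KAPs, which fill the space between the filaments. The many cysteines of the high and ultrahigh sulfur KAPs form disulfide bonds with each other and with the keratins, and this cross-linked matrix gives hair its rigidity. Bulge stem cells of a resting follicle are not a known site of KAP synthesis. KAP genes are short, mostly without introns, and lie in clusters in which neighbours are close in sequence, so probes may not separate the genes of a family.

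The values are log2 signals. Olfactory and vomeronasal receptors, which skin is not known to express, served as a reference (1532 genes). A background level was set at 7.26 log2 units, the 95th percentile of their means over all 6 arrays. For a gene whose dimmer group was below it, the fold change was computed against the level itself and is given as "at least". Signals of different rows come from different probes and are not compared with each other.

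Dab2, the targeted gene, was examined first. Its signal was higher, by 2.34 ± 0.08 log2 units (SE, limma adjusted p = 1.35e-05), in the arrays labelled Dab2-cKO (8.86 ± 0.09, against 6.52 ± 0.08 in WT, SD, n = 3), without overlap of the groups. The WT mean was below the background level, so the rise is given as at least 3.02-fold. This direction goes against the label, and the group is called the cKO-labelled arrays below. The part of the transcript that the probes of this row cover, relative to the deleted part, is not stated in the sources used. Probes outside that part would check nothing. Markers of fibroblasts, endothelium and leukocytes were also higher in the cKO-labelled arrays, as given below. The part of such cells in the Dab2 signal was not tested. The labels also give the hair cycle phase, and Mki67, the Ki67 antigen of dividing cells, was 14.46 ± 0.12 in the arrays labelled WT, at the transition from telogen to anagen, and 10.71 ± 0.40 in those labelled Dab2-cKO, in late telogen (SD, n = 3). All directions below rest on the labels. Arrays of a group correlated at 0.991 or more over all genes, and arrays of different groups at 0.936 or less.

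The promoters of these genes share a sequence feature that the choice of genes did not use. RefSeq (GRCm38.p6) held a promoter for 32 of the 35 genes, running from 250 bases before to 50 bases after the annotated start, and for 27025 genes in all. The last 60 bases before the start are shown for 9 genes with a large difference between the groups and for Krtap13, the gene that did not pass the test. Capitals mark the letters TATAAA, the core of the TATA box, at which the general transcription machinery binds in some promoters.
Krtap11-1: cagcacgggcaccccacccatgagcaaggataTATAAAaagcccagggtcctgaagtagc
Krtap1-5: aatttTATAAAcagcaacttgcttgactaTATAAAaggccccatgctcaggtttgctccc
Krtap28-13: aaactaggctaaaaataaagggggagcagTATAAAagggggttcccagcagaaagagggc
Krtap4-7: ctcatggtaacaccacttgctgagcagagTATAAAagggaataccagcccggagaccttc
Krtap17-1: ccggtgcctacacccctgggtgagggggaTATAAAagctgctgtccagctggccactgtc
Krtap5-1: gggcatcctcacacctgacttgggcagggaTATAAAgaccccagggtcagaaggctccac
Krtap26-1: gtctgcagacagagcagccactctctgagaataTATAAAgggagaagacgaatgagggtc
Krtap14: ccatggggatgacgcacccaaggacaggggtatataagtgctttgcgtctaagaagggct
Krtap13-1: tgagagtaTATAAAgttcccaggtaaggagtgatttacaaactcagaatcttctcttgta
Krtap13: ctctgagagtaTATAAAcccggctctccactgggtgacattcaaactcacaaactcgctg

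These windows lie, in GRCm38.p6, at Krtap11-1 chr16:89571184-89571243 (reverse strand), Krtap1-5 chr11:99581017-99581076 (reverse strand), Krtap28-13 chr1:83060870-83060929 (forward strand), Krtap4-7 chr11:99644090-99644149 (reverse strand), Krtap17-1 chr11:99993995-99994054 (reverse strand), Krtap5-1 chr7:142297135-142297194 (reverse strand), Krtap26-1 chr16:88647797-88647856 (reverse strand), Krtap14 chr16:88826146-88826205 (reverse strand), Krtap13-1 chr16:88728802-88728861 (forward strand), Krtap13 chr16:88751629-88751688 (reverse strand). In Krtap11-1, Krtap1-5, Krtap28-13, Krtap4-7, Krtap17-1, Krtap5-1 and Krtap26-1, TATAAA started between 31 and 27 bases before the annotated start. In Krtap13-1 and Krtap13 it lay farther upstream, and Krtap14 had no TATAAA in the printed window. Over all 32 promoters, 28 (87.5%) held TATAAA on either strand, against 14.2% of all 27025 promoters of the same length. On the strand of the gene and with its first base 40 to 20 bases before the start, a window chosen after the positions had been seen, TATAAA stood in 22 of 32 promoters (68.8%) and in 600 of the 27025 (2.22%). The plot of match positions shows this cluster.

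**Figure D1:**
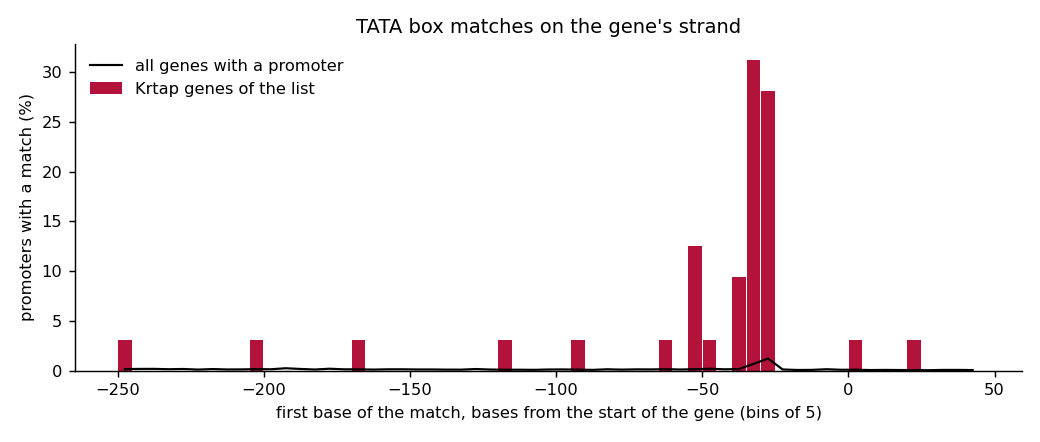
Share of promoters (percent, y axis) with TATAAA on the strand of the gene, by the position of its first base relative to the annotated start (bases, in bins of 5, x axis). Red bars are the 32 promoters of the high and ultrahigh sulfur Krtap genes and the black line is all 27025 promoters. The highest bars stand at 35 to 26 bases before the start, with 31.3% and 28.1% of the Krtap promoters, where the line reaches 0.688% and 1.23%.

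Other short motifs were searched on both strands in the same 300 bases. TTTAT, whose reverse complement ATAAA is part of TATAAA, was in 93.8% of the Krtap promoters and 40.9% of all promoters. TTAAT was in 56.3% against 27.5%, CTTTG, the core of the site of Lef1 and related factors, in 65.6% against 54.0%, and ACGC in 8 of 32 against 55.4%. Of 496 pairs of Krtap promoters aligned without gaps, 1 pair reached 80% identity (Krtap31-1 and Krtap31-2, 82.3%). The next most alike were of family 4, Krtap4-6 with Krtap4-9 at 73.1% and Krtap4-8 with Krtap4-9 at 71.8%, and the pair after these was at 45.2%. A match describes the letters only, and binding of a factor was not measured.

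High and ultrahigh sulfur KAP genes were lower in the cKO-labelled arrays almost without exception. Of the 33 genes, 32 were lower, none was higher and 1, Krtap13, did not pass the test (limma, Benjamini-Hochberg adjusted over all genes, threshold 0.05). Over all 30738 genes, 32.4% were lower and 18.2% were higher. The median difference of the 33 genes was -4.69 log2 units, against -0.14 over all genes, and single differences ran from -12.16 to -0.16. With means below the background level set to that level, the median was -1.95 for the 33 genes and 0 for all genes. For the 32 genes that were lower, all 3 cKO-labelled arrays lay below all 3 WT arrays, which 41.3% of all genes also did. The gap between the lowest WT array and the highest cKO-labelled array ran from 0.77 to 11.32 log2 units over these genes, and their adjusted p from 3.87e-07 to 0.0114.

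**Figure D2:**
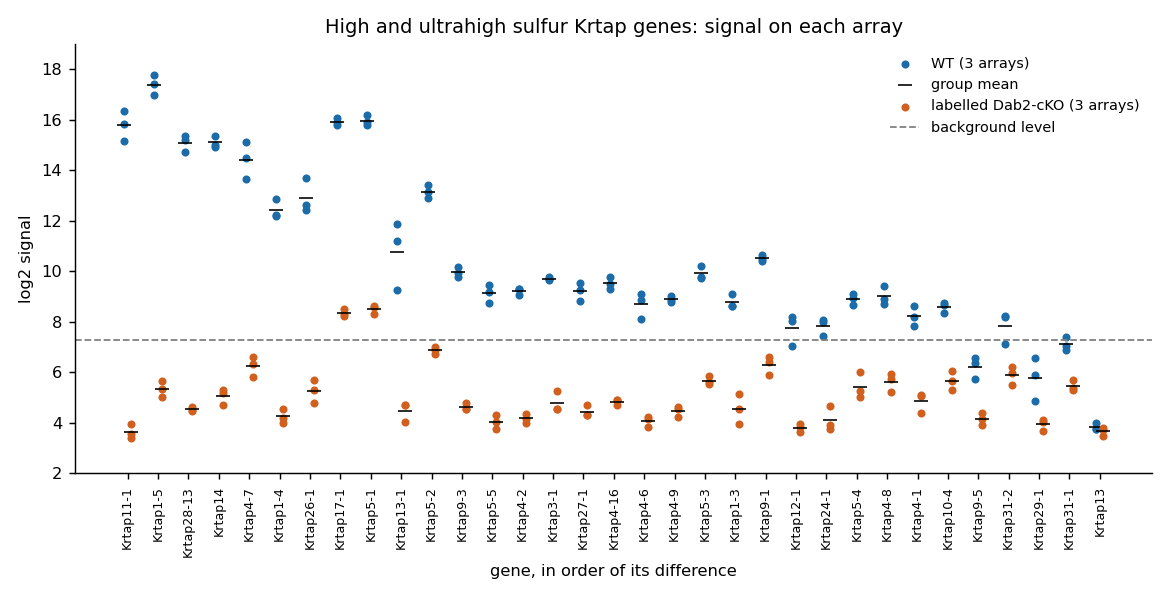
Log2 signal (y axis) of each of the 33 genes (x axis, in order of the difference) on each array. Blue points are the 3 WT arrays, orange points the 3 cKO-labelled arrays, horizontal bars the group means and the dashed line the background level of 7.26. Blue and orange points are apart in every gene except Krtap13, and only Krtap17-1 and Krtap5-1 have orange points above the line.

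The change was between signal and background for most of them. The WT mean was above the background level in 29 of the 33 genes. The mean of the cKO-labelled arrays was above it in 2, Krtap17-1 and Krtap5-1, on all 3 arrays. This 1 level was taken over both groups, although the receptor genes themselves were 0.86 log2 units lower in the cKO-labelled arrays. It was therefore easier to exceed in WT. Set at the 99th percentile of the receptor genes, 9.34, the background level left 16 of the 33 genes above it in WT and none in the cKO-labelled arrays, and 13 of the 27 bounds on a fold were lost. Among genes named below these were Krtap27-1, Krtap24-1, Krtap12-1, Krtap10-4 and Krtap31-2. The 14 bounds that remained were smaller (for Krtap1-5, at least 264-fold in place of 1113-fold), and the folds measured for Krtap17-1 and Krtap5-1 became bounds of at least 95.1-fold and 98.6-fold.

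Ranked by difference in signal, which takes signals below the background level as they were read, these genes were among the larger falls of the array. Of the 24 genes that fell by over 10 log2 units, 4 were of this list, and of the 60 that fell by over 6 units, 11 were. Of the 100 largest falls among all genes, 22 were high or ultrahigh sulfur KAP genes.

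Signals of other cells differed between the groups in the same arrays. Inner root sheath markers were lower in 9 of 9 genes, with a list mean per array of 15.09 to 15.32 in WT and 5.96 to 6.03 in the cKO-labelled arrays, where Krt27 alone of the 9 stayed above the background level. Hair matrix and cycling markers were lower in 5 of 5 genes (8.80 to 9.12 in WT, 6.49 to 6.58 in the cKO-labelled arrays), of which Mki67, Msx2 and Top2a had a group above the background level. Edar (-0.93) and Shh (-1.01) were below it in both groups, with differences close to the -0.86 of the receptor genes. Melanocyte markers were lower in 6 of 6 genes (10.33 to 10.63 in WT, 7.16 to 7.22 in the cKO-labelled arrays). Of these, Kit (-0.93) was little above the background level in WT (7.37), with a difference also close to that of the receptor genes. Markers of cells outside the epithelium moved the other way. Fibroblast markers were higher in 6 of 6 tested genes (11.32 to 11.74 in WT, 14.05 to 14.72 in the cKO-labelled arrays). Endothelial markers were higher in 4 of 4 (6.22 to 6.58, all 4 below the background level in WT, and 9.31 to 9.66). Leukocyte markers were higher in 6 of 7 (5.97 to 6.23, only Lyz2 above the background level in WT, and 8.56 to 8.75).

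Markers of the labelled cells were detected in part. Of 8 bulge HFSC markers, 5 had a mean above the background level in WT and 3 in the cKO-labelled arrays, and Lgr5, Nfatc1 and Tcf7l1 were below it in both groups. Of the 8, 5 were higher in the cKO-labelled arrays and 3 (Lgr5, Lhx2 and Sox9) were lower. Lhx2 (-0.93) and Sox9 (-1.04) were little above the background level in WT, at least 1.05-fold and 1.22-fold. Their differences were close to the -0.86 of the receptor genes. Cd34, a sorting marker, was 9.55 ± 0.26 in WT (SD, n = 3) and 2.45 log2 units higher in the cKO-labelled arrays, and Itga6, which encodes α6-integrin, was 8.08 ± 0.02 and 1.10 units higher. Of 4 markers of basal keratinocytes, 2 were higher and 2 did not pass the test. The part of these shifts in the KAP result was not tested. In sorted bulk samples, fewer cells of a type and less RNA per cell cannot be told apart.

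Krtap11-1, a high sulfur KAP that in human hair is made in the cortex, went from a strong signal to one below background. The WT arrays read 16.35, 15.81 and 15.17 and the cKO-labelled arrays 3.53, 3.94 and 3.37, in the order of replicates 1 to 3. The difference in signal was -12.16 ± 0.31 (SE, adjusted p = 4.4e-06). Since the cKO-labelled arrays were below the background level, the fall is given as at least 366-fold. Krtap1-5, of the high sulfur family 1, had values of 16.97, 17.41 and 17.77 in WT and 5.65, 5.32 and 5.03 in the cKO-labelled arrays. It was at least 1113-fold lower, with a difference in signal of -12.05 ± 0.24 and no overlap of the groups. By difference in signal Krtap11-1 came first of the list, and by the fold against the background level Krtap1-5 did. All 3 tested genes of family 1, which lie next to each other on chromosome 11, were lower, with differences of -4.24 to -12.05.

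Families 13 and 14 held both a large difference and the only gene without one. Krtap14, also known as Pmg1, read 15.01, 15.37 and 14.93 in WT and 5.29, 4.69 and 5.17 in the cKO-labelled arrays, a difference of -10.05 ± 0.19, at least 229-fold. Krtap13-1 varied more than any other gene of the list within WT. Its WT arrays read 9.25, 11.20 and 11.87 (SD 1.36, n = 3), against 4.00, 4.70 and 4.70 in the cKO-labelled arrays. The difference was -6.30 ± 0.65 (adjusted p = 0.000569), and it was -7.06 without WT replicate 1, the lowest of the WT arrays. Krtap13, its neighbour, stood near the bottom of the scale on all arrays. It read 3.73, 3.73 and 3.99 in WT and 3.79, 3.70 and 3.46 in the cKO-labelled arrays. The groups overlapped, the difference was -0.16 ± 0.12 (adjusted p = 0.299), and both groups were below the background level, so these arrays carry no measured level of this gene in either group. Centred on the receptor genes, its difference became 0.70.

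Among the ultrahigh sulfur families, whose proteins carry the largest share of cysteine, all 16 tested genes were lower, with a median difference of -4.66. Krtap4-7 led family 4. Its WT arrays read 13.65, 14.47 and 15.12 and the cKO-labelled arrays 6.33, 6.60 and 5.79, a difference of -8.18 ± 0.39, at least 142-fold. The lowest WT array was 7.04 units above the highest of the others. All 7 tested genes of family 4 were lower, with differences of -3.35 to -8.18.

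Krtap5-1, of a family made in the cuticle of human hair, was 1 of the 2 genes still above the background level in both groups. It read 16.20, 15.77 and 15.91 in WT and 8.57, 8.62 and 8.29 in the cKO-labelled arrays, and its fold was therefore measured on both sides, 177-fold (difference -7.47 ± 0.14, adjusted p = 1.4e-06). A second row of the gene gave -7.32. The 5 tested genes of family 5, all on chromosome 7, were lower, with differences of -7.47 to -3.46. Krtap17-1, the only gene of its family, likewise stayed above the background level. It read 15.90, 16.05 and 15.78 in WT and 8.32, 8.49 and 8.24 in the cKO-labelled arrays, a 189-fold difference with the smallest adjusted p of the list (3.87e-07). Its arrays lay close together in both groups, with an SD of 0.14 in WT and 0.13 in the cKO-labelled arrays.

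Krtap9-3 had the largest difference in family 9. Its values were 9.76, 9.94 and 10.18 in WT and 4.55, 4.78 and 4.55 in the cKO-labelled arrays, at least 6.49-fold lower (difference -5.33 ± 0.13). The 3 tested genes of this family had differences of -5.33 to -2.09. In Krtap9-5 both groups were below the background level, and no fold is given.

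In 13 genes of high sulfur families, 12 were lower, with a median difference of -4.92, and Krtap13 was the exception. Krtap26-1, which lies near Krtap13-1 on chromosome 16, read 12.41, 12.60 and 13.68 in WT and 4.76, 5.29 and 5.69 in the cKO-labelled arrays. It fell by 7.65 ± 0.38 log2 units, at least 49.8-fold, and WT replicate 3 was the highest WT array, as in Krtap13-1. Krtap3-1 was almost constant in WT, at 9.75, 9.65 and 9.67 (SD 0.05), and read 4.53, 5.24 and 4.55 in the cKO-labelled arrays. Its difference was -4.92 ± 0.20, at least 5.38-fold. The rows shared by Krtap3-2 and Krtap3-3 could be read only for both genes together, and differed by -3.89 ± 0.25 and -3.91 ± 0.26 (adjusted p = 0.000135 and 0.000157 over 65956 transcript rows, of which 31.9% were lower).

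Other high sulfur genes had WT signals closer to the background level. Krtap27-1 read 8.80, 9.54 and 9.25 in WT and 4.31, 4.68 and 4.29 in the cKO-labelled arrays (difference -4.77 ± 0.21). Krtap24-1, a KAP of the cuticle in human hair, ran from 7.43 to 8.04 in WT, and its cKO-labelled arrays read 3.88, 4.66 and 3.73 (difference -3.73 ± 0.28). In both genes the groups did not overlap.

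Families 10 and 12, known from the cuticle of human hair, lie together on chromosome 10. Krtap12-1 read 7.04, 8.19 and 8.04 in WT, so that WT replicate 1 was below the background level, and 3.83, 3.95 and 3.63 in the cKO-labelled arrays (difference -3.96 ± 0.30). Krtap10-4 read 8.64, 8.32 and 8.73 against 5.64, 6.05 and 5.27 (difference -2.91 ± 0.21). These differences were several times the spread between arrays, which had an SD of at most 0.62 in these genes.

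Families 28, 29 and 31 were given no sulfur class. Krtap28-13, the only gene of the list on chromosome 1, read 15.35, 14.71 and 15.18 in WT and 4.51, 4.61 and 4.46 in the cKO-labelled arrays. It fell by 10.55 ± 0.17 log2 units, at least 225-fold. The remaining genes of these families had smaller differences in signal. Their WT signals were near or below the background level, which limits the fall that can be read. Krtap31-2 read 7.12, 8.17 and 8.23 in WT and 6.19, 5.97 and 5.49 in the cKO-labelled arrays (difference -1.96 ± 0.33, adjusted p = 0.00398), with WT replicate 1 below the background level. In Krtap31-1 and Krtap29-1 both groups were below that level, with differences of -1.66 and -1.85.

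Arrays of a group differed little in most genes of the list. The median SD was 0.33 in WT and 0.28 in the cKO-labelled arrays, and the SD was above 0.5 in 8 genes in WT and in 2 in the cKO-labelled arrays. In WT no single array was the lowest or the highest throughout. WT replicate 1 was the lowest WT array in 18 of 33 genes and also the highest in 10, as the plot of deviations shows. Within the cKO-labelled arrays, where most of these signals were below the background level, replicate 3 was the lowest in 24 genes and replicate 2 the highest in 21. The mean signal of the receptor genes was likewise lowest in replicate 3 (4.66) and highest in replicate 2 (4.89) of these arrays.

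**Figure D3:**
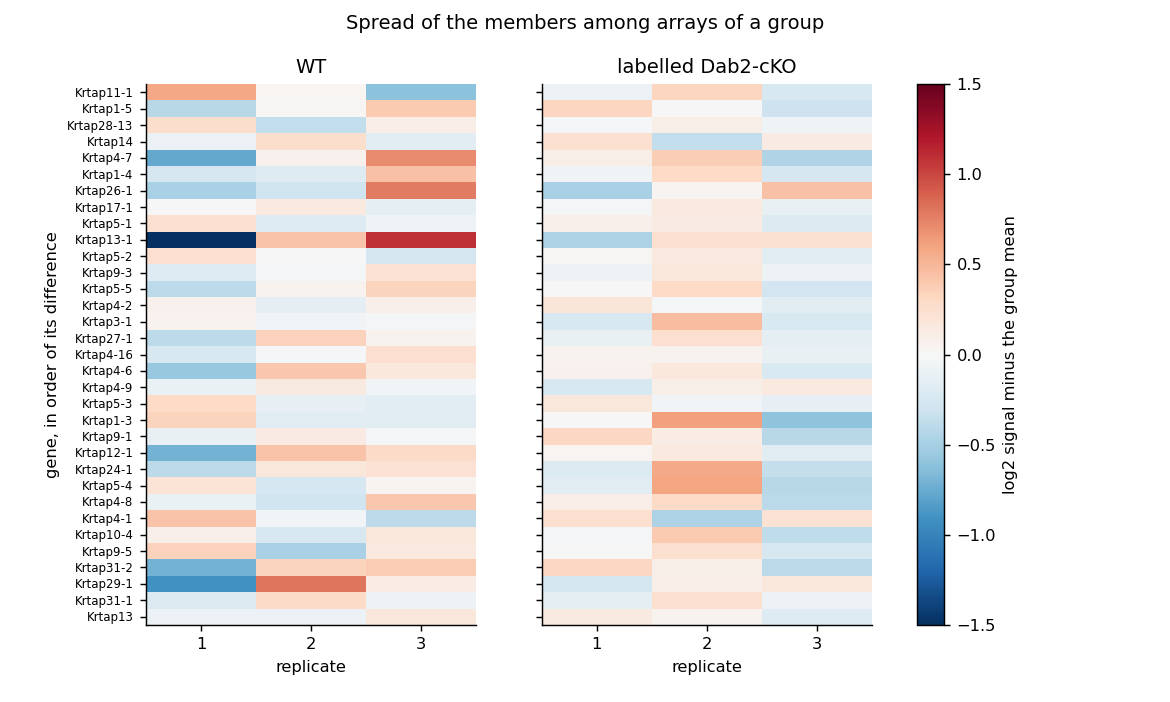
Deviation of each array (x axis, replicate number) from the mean of its group, in log2 units (colour scale), for the 33 genes (y axis, in order of the difference), in WT (left) and in cKO-labelled arrays (right). The darkest cells are those of Krtap13-1 in WT, whose arrays ran from 9.25 to 11.87, and no array is high or low in every gene.

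By position, the genes lie in 4 clusters on chromosomes 7, 10, 11 and 16, apart from Krtap28-13. All 18 tested genes on chromosome 11 were lower (median -4.54), as were 6 of 7 on chromosome 16 (median -6.30), 5 of 5 on chromosome 7 (median -5.11) and 2 of 2 on chromosome 10 (median -3.43). Between the outermost genes of the 4 clusters lay 36 tested genes without a Krtap symbol, most of them predicted models that the files do not annotate further. Of these, 31 were lower, 1 was higher and 4 did not pass the test, with a median difference of -3.74. Of the 80 tested genes just outside, 10 on each side of a cluster, 32 were lower and 22 were higher (median -0.12). Over all genes, 32.4% were lower and 18.2% were higher. The 80 genes included keratin genes on both sides of the cluster on chromosome 11. Predicted models directly outside the cluster on chromosome 10 were lower too, such as Gm10142 (-2.35) before it and Gm3285 (-2.58) after it. Beside the cluster on chromosome 7, Gm4553 was lower (-4.96) and Gm5054 did not pass the test (0.01). The borders were set by the outermost Krtap symbols of the list.

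Within 2 of the clusters some genes stood apart from the others. On chromosome 16, Krtap13 and 3 genes next in order, 2310034C09Rik, 2310057N15Rik and Gm20741, did not pass the test (differences of -0.42, -0.14 and -0.10 for these 3), while Gm5965 among them was lower (-0.75), by less than the difference of -0.86 between the groups' mean signals of the receptor genes. All of these genes were below the background level in both groups, and they were chosen after their values had been seen. They lay between Krtap13-1 and Krtap14, which differed by -6.30 and -10.05. On chromosome 11, the pseudogene Gm11557, between Krtap4-6 and Krtap4-8, was the only gene inside a cluster that was higher, at 12.01 ± 0.13 in WT and 13.01 ± 0.20 in the cKO-labelled arrays (SD, n = 3), and the pseudogene Gm11560, between Krtap31-1 and Krtap31-2, did not pass the test (difference 0.51).

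**Figure D4:**
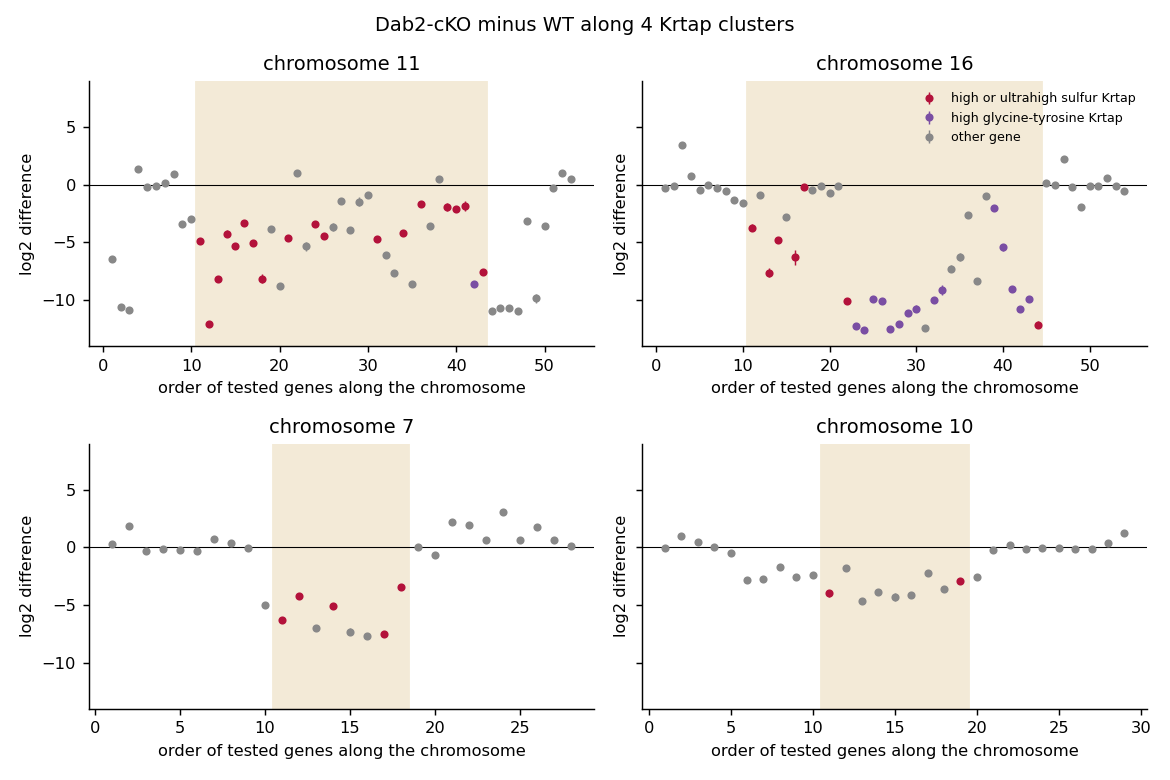
Difference between cKO-labelled arrays and WT (log2 units, y axis, with the standard error as a bar where it is larger than the point) for tested genes in their order along each chromosome (x axis, rank and not distance). Shading spans the outermost high or ultrahigh sulfur Krtap genes (red), purple points are high glycine-tyrosine Krtap genes and grey points other genes. Inside the shading 31 of 36 grey genes were lower. Krtap13 and the grey points beside it on chromosome 16 lie near 0.

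The other structural genes of the shaft fell in the same arrays. High glycine-tyrosine KAPs are the other large class of KAPs. All 16 tested genes of the families set apart as this class were lower. Their median difference was -10.01, with a range of -12.58 to -2.02. Of these genes, 15 lie in the cluster on chromosome 16. Krtap16-1 lies in the cluster on chromosome 11 (difference -8.58), and its class was not checked. Krtap19-2, Krtap19-5, Krtap19-1 and Krtap19-9b differed in signal by -12.58, -12.52, -12.28 and -12.09, and since their cKO-labelled means were below the background level they were at least 2294-fold, 1394-fold, 3083-fold and 1665-fold lower. Krtap19-5 and Krtap19-9b each had the same value on WT replicates 2 and 3, and the order of these genes is not read further. All 12 tested hair shaft keratin genes (of 16 listed) were lower, with a median of -6.09. Krt31, Krt33a, Krt33b and Krt34, type I keratins of the cortex, were at least 497-fold, 407-fold, 418-fold and 274-fold lower, and Krt35, added after its value was seen, at least 479-fold. No test was made between these lists and the high and ultrahigh sulfur genes.

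Genes known to regulate hair shaft differentiation were mostly below the background level. Of 22 listed, 19 were tested, of which 14 were lower, 1 was higher and 4 did not pass the test, with a median of -1.12, whereas 8 fell and 7 rose once arrays were centred on the receptor genes. Only 7 of the 19 had a group above the background level, and the receptor genes themselves differed by -0.86. Dlx3, a homeobox factor that hair formation needs, read 10.15, 11.82 and 11.78 in WT and 5.69, 5.23 and 5.76 in the cKO-labelled arrays (difference -5.69, at least 15.9-fold). Lef1, a mediator of Wnt signals, differed by -4.21, Msx2, a homeobox factor of the matrix, by -3.75, and Foxn1, the nude gene, by -2.67, with both groups of Foxn1 below the background level. Hoxc13, which is known to bind promoters of hair keratins and is added here after its value was seen, differed by -1.42, from 6.96 ± 0.26 to 5.54 ± 0.34 (SD, n = 3), below the background level in both groups. Runx3, the gene that was higher, changed by 0.32, also below that level.

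Genes of protein cross-linking and of cystine and thiol supply were mixed. Of 17 genes, 12 were lower, 3 were higher and 2 did not pass the test, with a median of -1.49. Tchh, which encodes trichohyalin of the inner root sheath and medulla, differed by -11.29, S100a3, a calcium-binding protein of the cuticle, by -10.05, and Padi3 and Padi1, which convert arginine to citrulline in such proteins, by -6.48 and -3.31. Tgm5, a transglutaminase, Qsox1, a sulfhydryl oxidase, and Glrx, a glutaredoxin, were higher by 1.12, 0.85 and 0.44, with Glrx below the background level in both groups, and these 3 were chosen after their values had been seen.

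**Figure D5:**
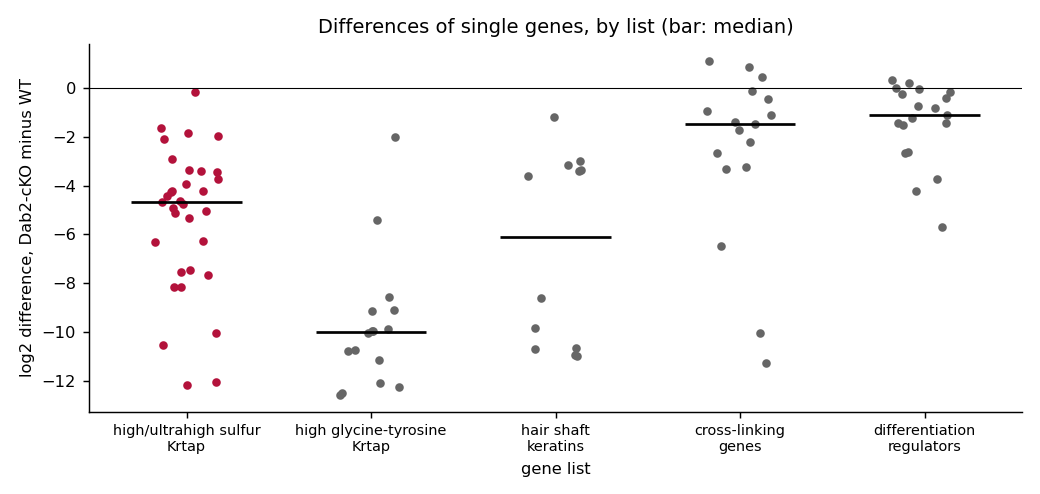
Difference between cKO-labelled arrays and WT (log2 units, y axis) of each tested gene of 5 lists (x axis). Each point is a gene, spread sideways only for legibility, and bars are list medians, -4.69 for the high and ultrahigh sulfur KAP genes (red), -10.01 for the high glycine-tyrosine KAP genes, -6.09 for the shaft keratins, -1.49 for the cross-linking genes and -1.12 for the regulators.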

How the data were processed

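From each sample 1 ng of HFSC RNA was amplified (GeneChip WT Pico) for 1 Affymetrix mouse whole-transcriptome array. The authors deposited log2 signals, and per the labels these were made with RMA in Affymetrix Expression Console, with no versions given. RMA equalises the probe distributions of the arrays, so a change in total RNA per cell cannot be seen. For the array annotation, the genome build was not given in the sources used.

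Of 72688 rows, 6732 were controls. Of the 65956 transcript rows, 31292 named 1 gene, 1522 named several and 33142 had no name here. A RefSeq gene table (GRCm38.p6) served to update symbols and held 30736 of the 30738 genes. Where a gene had several rows (439 genes), the row with the highest mean over the 6 arrays was used. Rows that named a Krtap gene of the list with another gene (6 rows) were left out of the counts. Protein sequences were not analysed here.

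Groups were compared by limma 3.58.1 (R 4.3.3), by lmFit and eBayes without a covariate, two-sided p adjusted by Benjamini-Hochberg over 30738 genes and a threshold of 0.05. Errors of differences are moderated SEs. The fit was tested on simulated data. With 3 arrays per group the number of arrays limits the precision, and p-values measure the spread between these arrays.

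Named genes were Dab2, the gene with the largest difference of each family if its brighter group was above the background level, genes not called, genes whose promoters are shown, and up to 4 called genes of each other list with the largest differences. The genes and lists were chosen with earlier results of these data known. Sulfur classes were assigned after values had been seen. Alternatives covered normalization, the filter on dim genes, the choice of rows and genes, the variance prior, the replicate number as a block and each array left out in turn.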

Additional observations from a re-analysis of the deposited data

How the results depend on the processing

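The count of 32 lower genes of 33 was unchanged under median centring, quantile normalization, centring on the receptor genes, the replicate block, each array left out in turn, protein-coding genes only, mean rows, all transcript rows and an intensity trend. Centring on the positive control rows gave 33. Testing only genes above the background level kept 29 genes, 27 of them only through WT, so that being lower was favoured by the filter, and their count is no support. Over 524 values of single Krtap genes, 522 kept their direction and their side of the threshold. This tally includes the 29 genes kept by the filter on dim genes. Several alternatives reuse the same signals, and mean rows changed the signals of only 1 gene of the list. The tally is therefore not a count of independent checks. Both exceptions were of Krtap13, which lay below the background level in both groups. It was 0.70 (adjusted p = 0.000743) under centring on the receptor genes, where it became the 1 higher gene of the list, and -0.52 (adjusted p = 0.0101) under centring on the positive control rows. The cause was not tested. Receptor genes were themselves lower in the cKO-labelled arrays, with array means of 5.59 to 5.75 in WT and 4.66 to 4.89 in the others.

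The 4 scalings moved the median of all genes from -0.14 to 0.18 (median centring), 0.11 (quantile), 0.73 (receptor genes) and -0.50 (positive controls), and with it the median of the Krtap genes from -4.69 to -4.38, -4.40, -3.83 and -5.05. Among genes above the background level the median of the Krtap genes was -4.92, which the filter favoured as it did the count, so it is no support. Leaving out 1 array gave -4.89 (without WT replicate 1) to -4.56 (without WT replicate 3). The regulators were the list that depended on scaling. With the receptor genes as reference, 8 were lower and 7 higher, in place of 14 and 1. Higher regulators numbered 4 under median centring, 2 under quantile normalization and 0 under centring on the positive controls. With genes above the background level only, 6 were lower and 0 higher of 7. All 7 were above that level in WT and 3 in the cKO-labelled arrays, so the filter favoured lower genes and this count is no support.

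Same-numbered arrays of both groups had correlated deviations of -0.08, -0.22 and -0.02, and arrays of different numbers -0.12 to 0.20. The labels do not say whether the numbers pair the samples, and so few arrays cannot decide it. With the replicate block, 32 Krtap genes were lower, 13 regulators in place of 14, and the median difference was -4.69.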

Other observations

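Rows that the annotation gives to a Krtap gene of these families together with another gene were left out of the counts above. All 6 were lower in the cKO-labelled arrays (limma over 65956 transcript rows, of which 31.9% were lower). Some of the 6 name the same genes and are not separate evidence. The row of Krtap15 and 4930553J12Rik read 10.54, 10.80 and 10.67 in WT and 6.14, 6.29 and 5.59 in the cKO-labelled arrays, a difference of -4.67 ± 0.19. That of Krtap4-13, Gm11554 and Gm11569 differed by -4.69 ± 0.26 and that of Krtap10-4, Krtap10-10 and Gm2696 by -3.00 ± 0.10. The 3 rows that name Krtap2-4, with Gm11937, Gm11938 and in 1 case Gm11562, differed by -4.17, -2.90 and -2.40. Which of the genes of such a row gave the signal cannot be told apart.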
